A study of Homo sapiens with 9 samples.

Results

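The regions described here were the DHX34 peaks that lay in the first intron of a protein-coding gene. A peak was a member when it sat wholly inside a protein-coding gene, touched no exon of any transcript of that gene, and fell wholly within intron 1 of the gene's MANE Select transcript, or of its Ensembl canonical transcript where no MANE Select one was tagged. Where several protein-coding genes held a peak, genes other than read-through ones came first, and then the lowest gene identifier. Of the 2261 peaks in the deposited list, 398 met this rule. They were spread over 365 host genes on 23 chromosomes, and for 397 of them the transcript was the MANE Select one. The other peaks comprised 843 in later introns, which served as the comparison set, 566 that overlapped an exon of their gene, 346 that were not contained in a protein-coding gene and 108 that touched no exon but lay outside the introns of the chosen transcript. Membership used position only, so sequence content and the fourth column of the list played no part in the choice.

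The peaks came from seCLIP, a single-end form of enhanced crosslinking and immunoprecipitation in which RNA joined to a protein by UV light is copurified with that protein, trimmed and sequenced. All libraries were from UV-crosslinked HEK293T cells, an embryonic kidney cell line, and all were labelled anti-GFP. The 5 immunoprecipitation libraries (DHX34-GFP) were from a line whose endogenous DHX34 locus carries a carboxy-terminal GFP and FLAG tag, and the 4 control libraries (no tag), whose titles call them GFP inputs, were from the untagged parental cells. The methods also describe the peak-calling controls as inputs, whereas the labels give them the anti-GFP treatment too, so whether they were immunoprecipitated is not settled here. Per the methods the tagged cells were 1 CRISPR clone, A5, so that the tag and any other property of that clone cannot be told apart. The list holds a position and a whole number of unstated meaning for each peak, with no strand, read count or value per library, so the depth behind each peak cannot be read from it and replicates could not be compared. Per the methods, peaks were later selected on read support; that selection is not marked in the list and was not applied here, and peaks resting on few reads may be among the members. Peaks were read on the strand of the host gene.

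DHX34 is a DExD/H-box RNA helicase that acts in nonsense-mediated decay and has been found with the spliceosome. The first intron is the first part of a pre-mRNA that splicing removes. In human genes it is often the longest intron, and its beginning frequently lies within the CpG island that covers the promoter, where the RNA copied from it is rich in G and C. Runs of G in RNA can be bound by splicing factors such as the hnRNP H family and, when several lie close together, can fold into a G-quadruplex, a structure that several RNA helicases are known to unwind.

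Below are the sequences of 7 first-intron peaks, read 5′ to 3′ on the host gene's strand from the GRCh38 genome, with runs of 3 or more G and the pentamer GGAGG in capitals. SF3B1, the core U2 snRNP subunit that recognises the branch site, is shown because the study concerns splicing (chr2:197434657-197434757, minus strand). MLF1, myeloid leukemia factor 1 (chr3:158571702-158571803, plus strand), HIC2, a zinc-finger transcriptional repressor (chr22:21417581-21417684, plus strand) and PALM2AKAP2, a protein kinase A anchoring protein (chr9:109835213-109835315, plus strand) had the highest G content of all members. DPF2, a subunit of the BAF chromatin remodelling complex (chr11:65333969-65334080, plus strand), D2HGDH, a mitochondrial dehydrogenase of D-2-hydroxyglutarate (chr2:241734748-241734861, plus strand) and DKC1, the pseudouridine synthase dyskerin (chrX:154762982-154763147, plus strand) held the peaks nearest the transcription start.
SF3B1: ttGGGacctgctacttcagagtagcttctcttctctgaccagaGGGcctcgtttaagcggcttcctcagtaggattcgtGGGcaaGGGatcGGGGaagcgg
MLF1: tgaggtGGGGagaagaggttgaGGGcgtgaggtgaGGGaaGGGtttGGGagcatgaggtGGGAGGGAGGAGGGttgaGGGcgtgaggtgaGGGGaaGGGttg
HIC2: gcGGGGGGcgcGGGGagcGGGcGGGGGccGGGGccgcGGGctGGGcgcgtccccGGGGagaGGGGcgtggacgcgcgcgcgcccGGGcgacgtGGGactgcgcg
PALM2AKAP2: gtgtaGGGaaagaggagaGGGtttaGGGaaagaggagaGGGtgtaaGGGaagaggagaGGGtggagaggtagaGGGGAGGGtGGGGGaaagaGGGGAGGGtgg
DPF2: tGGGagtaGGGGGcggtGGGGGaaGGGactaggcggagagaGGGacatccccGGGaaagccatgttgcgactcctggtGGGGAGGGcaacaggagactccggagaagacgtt
D2HGDH: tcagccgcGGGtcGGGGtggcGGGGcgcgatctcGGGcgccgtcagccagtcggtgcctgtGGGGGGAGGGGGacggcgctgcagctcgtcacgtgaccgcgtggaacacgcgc
DKC1: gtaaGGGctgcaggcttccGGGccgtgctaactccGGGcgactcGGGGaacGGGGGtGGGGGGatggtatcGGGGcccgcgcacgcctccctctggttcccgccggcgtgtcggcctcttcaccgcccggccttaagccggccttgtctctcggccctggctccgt
The MLF1 peak was 59.8% G, the HIC2 peak 59.6% and the PALM2AKAP2 peak 59.2%. Those of MLF1 and PALM2AKAP2 were built from repeated units, with the longest stretch that occurred more than once within the peak being 22 nt and 19 nt. The PALM2AKAP2 peak had no C, so that its GC content was also 59.2%, whereas the GC content of the HIC2 peak was 89.4%. The SF3B1 peak was less extreme, with 32.7% G, and carried 16 of its 101 bases in capitals.

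A group of 10 of the 398 first-intron peaks had a fourth-column value of 2, the highest value among the members, and every other member had a value of 1. These 10 are shown because they are the peaks the list itself sets apart. They lay in BCAT2, the mitochondrial branched-chain amino acid transaminase (chr19:48810557-48810678, minus strand), CAPN10, a calpain protease (chr2:240588780-240588903, plus strand), EFNA5, the guidance ligand ephrin-A5 (chr5:107559079-107559209, minus strand), GSE1, a coiled-coil protein found with histone deacetylases (chr16:85630878-85630984, plus strand), HOXB3, a homeobox transcription factor (chr17:48579040-48579144, minus strand), NAA20, the catalytic subunit of the N-terminal acetyltransferase NatB (chr20:20019033-20019183, plus strand), NEURL1, a ubiquitin ligase (chr10:103570591-103570699, plus strand), PCBD2, a pterin dehydratase (chr5:134905308-134905431, plus strand), RFX1, a winged-helix transcription factor (chr19:14005649-14005770, minus strand) and SFXN1, a mitochondrial serine transporter (chr5:175487130-175487400, plus strand).
BCAT2: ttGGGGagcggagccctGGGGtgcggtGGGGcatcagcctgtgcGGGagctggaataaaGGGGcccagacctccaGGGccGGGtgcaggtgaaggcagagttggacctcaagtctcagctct
CAPN10: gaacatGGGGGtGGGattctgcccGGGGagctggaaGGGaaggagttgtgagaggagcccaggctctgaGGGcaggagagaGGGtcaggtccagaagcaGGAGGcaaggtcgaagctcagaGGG
EFNA5: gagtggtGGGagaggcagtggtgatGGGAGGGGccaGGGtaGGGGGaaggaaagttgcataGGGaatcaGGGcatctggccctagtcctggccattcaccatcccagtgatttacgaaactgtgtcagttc
GSE1: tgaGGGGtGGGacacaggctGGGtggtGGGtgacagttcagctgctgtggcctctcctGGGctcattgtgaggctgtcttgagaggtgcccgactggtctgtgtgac
HOXB3: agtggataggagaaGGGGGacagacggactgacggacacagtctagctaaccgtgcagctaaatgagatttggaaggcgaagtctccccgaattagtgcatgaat
NAA20: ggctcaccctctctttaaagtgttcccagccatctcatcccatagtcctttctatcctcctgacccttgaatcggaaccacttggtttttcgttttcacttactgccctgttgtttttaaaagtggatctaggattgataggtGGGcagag
NEURL1: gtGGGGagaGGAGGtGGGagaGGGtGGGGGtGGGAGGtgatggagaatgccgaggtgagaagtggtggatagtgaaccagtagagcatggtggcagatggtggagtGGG
PCBD2: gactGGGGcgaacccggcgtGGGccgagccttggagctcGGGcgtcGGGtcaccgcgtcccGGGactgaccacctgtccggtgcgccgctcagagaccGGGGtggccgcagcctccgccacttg
RFX1: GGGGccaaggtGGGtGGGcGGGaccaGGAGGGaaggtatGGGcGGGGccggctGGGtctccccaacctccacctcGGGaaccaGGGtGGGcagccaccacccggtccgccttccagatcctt
SFXN1: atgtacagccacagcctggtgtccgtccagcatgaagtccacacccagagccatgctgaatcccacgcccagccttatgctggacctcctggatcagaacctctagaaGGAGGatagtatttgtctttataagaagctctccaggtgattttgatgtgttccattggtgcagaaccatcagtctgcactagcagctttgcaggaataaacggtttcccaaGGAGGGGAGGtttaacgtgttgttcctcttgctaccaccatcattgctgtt
In BCAT2, EFNA5, GSE1, HOXB3, NEURL1, PCBD2 and RFX1 most or all of the capitals fall before the middle of the peak. CAPN10 has only slightly more before the middle than after it, and SFXN1 has most after it. NAA20 had the lowest G content, with 19.2% G and a single run of 3 G near its 3′ edge. The G content of the other 9 lay between 23.6% in SFXN1 and 55.05% in NEURL1, and SFXN1 was the widest of the 10 at 271 nt. The peak in PCBD2 lay 177 nt from the transcription start and that in NEURL1 76886 nt from it, so these peaks did not share a position. A value of 2 or more was found in 2.51% of first-intron peaks (95% Wilson interval 1.37 to 4.56%) and in 1.19% of later-intron peaks (10 of 843, 0.646 to 2.17%), an odds ratio of 2.15 that did not pass the threshold (Fisher's exact test, two-sided, adjusted exact p = 0.117 over the 10 features compared).

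To ask how much of the intron space these peaks took up, they were set against the 18207 protein-coding genes with a first intron on the autosomes and the X chromosome, read-through genes left out. Of these genes 364, or 2.00%, had a first-intron peak. Their first introns were long, with a median of 36901.5 nt, against 3488 nt for genes without such a peak and 3633 nt for all genes. Over the 365 hosts the quartiles were 14574 and 76196 nt, with the shortest at 437 nt in D2HGDH and the longest at 550366 nt in RORA, a nuclear receptor gene. The other short ones were those of PYGO2, a Wnt coactivator (447 nt), and ABCG4, a sterol transporter (590 nt). When genes were ranked by first-intron length and cut into 10 equal classes, the share of hosts was 0% in the shortest class, 0.549% in the fifth, 4.28% in the ninth and 9.94% in the longest.

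**Figure D1:**
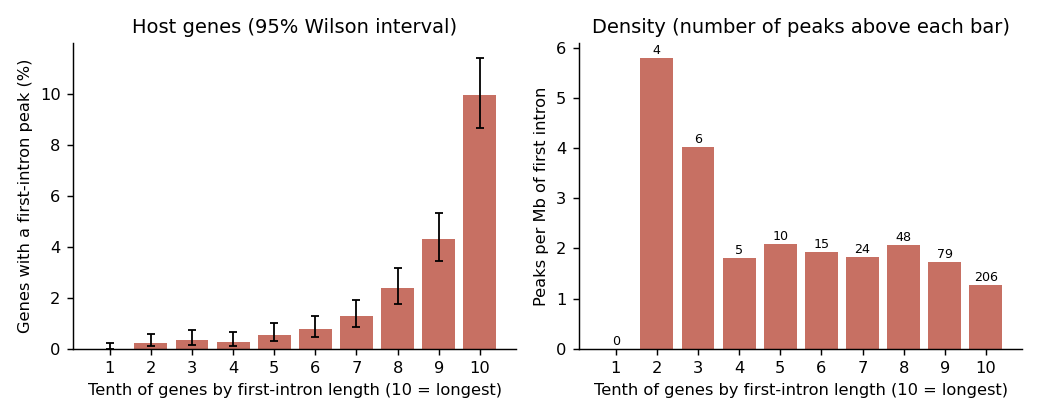
Left, share of protein-coding genes with a first-intron peak (%, bars, with 95% Wilson intervals) in 10 classes of equal gene number ordered by first-intron length. Right, number of first-intron peaks per Mb of first intron free of exons in the same classes, with the number of peaks above each bar. The share of hosts climbs to 9.94% in the class with the longest first introns, while the density there, 1.27 peaks per Mb, is the lowest of the 9 classes that hold peaks.

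Longer introns thus held more peaks per gene but not more peaks per base. The density was 1.27 peaks per Mb of exon-free first intron in the longest class (206 peaks), between 1.72 and 2.09 per Mb in classes 4 to 9, and 5.80 and 4.03 per Mb in the second and the third class, where it rested on 4 and 6 peaks. Across all genes, exon-free first introns covered 262.5 Mb and later introns 779.4 Mb, and peaks stood at 15.1 per 10 Mb in the former and 10.7 per 10 Mb in the latter. First introns therefore had 32.3% of the intron-only peaks in these genes and 25.2% of the intron length, or 22.4% of it when only the 1043 genes with either kind of peak were counted. The list holds no measure of how much RNA of each intron was present, so these densities are per base of genome and not per molecule. Of the 364 hosts, 9.62% (35 genes) also had a later-intron peak, against 3.92% of all genes. Hosts had longer first introns than genes as a whole, and these 2 shares were matched for neither length nor transcription. The start codon lay in exon 1 in 64.3% of hosts (234 genes) and in 60.8% of all genes. In the other 130 hosts it lay in a later exon.

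Most first-intron peaks were far from the transcription start, and a minority was close to it. The median distance from the start of the transcript was 10996.5 nt (95% interval of the median 8168 to 13507), the quartiles were 2476 and 30734 nt, and the extremes were 117 nt in DPF2 and 319792 nt in RORA. After DPF2, the nearest to the start were D2HGDH and DKC1 (118 nt each), CGNL1, which encodes a cell junction protein (120 nt), and CNOT2, a subunit of the CCR4-NOT deadenylase (134 nt). The farthest after RORA were an unnamed protein-coding gene (ENSG00000285283, 268329 nt), MECOM, a zinc-finger transcription factor (259057 nt), KAZN, which encodes kazrin (253170 nt), and KCNQ5, a potassium channel subunit (210142 nt). The peak in SF3B1 lay 271 nt from the start and 214 nt from the 5′ splice site, in an intron of 10997 nt.

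The distribution was compared with allowed positions, that is, all places in the same introns where a peak of the same width would touch no exon. This comparison has no test, because repeats were not masked in it whereas the authors had removed reads in transposable elements. Within 1 kb of the start lay 59 peaks, 14.8% of the members (95% Wilson interval 11.7 to 18.7%), against 6.44% of allowed positions. Between 1 and 2 kb there were 33 peaks (8.29% against 5.76%), and between 2 and 5 kb 51 peaks (12.8% against 13.0%). From 5 kb on the share of peaks was below that of allowed positions in each class, for example 34.9% against 40.7% between 10 and 50 kb. The 92 peaks within 2 kb of the start are called start-proximal below, and the remaining 306 start-distal.

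Many genes have several annotated starts, and the first intron of one transcript can hold the start of another. Another annotated start of the same gene lay between the chosen start and the peak in 304 of the 398 peaks (76.4%). This count takes in starts within exon 1, some only a few nt from the chosen start, so it is not a count of starts inside the intron. Measured to the nearest annotated start of the gene, the median distance was 5124.5 nt, and 91 peaks (22.9%) lay within 1000 nt of one. In NEURL1 the peak with a value of 2 was 76886 nt from the chosen start but 1086 nt from another annotated start, and in HOXB3 that peak was 11097 nt and 213 nt away.

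Within the intron, first-intron peaks leaned towards the 5′ splice site, with a median relative position of 0.363 (0 being the 5′ splice site and 1 the 3′ splice site; 95% interval 0.323 to 0.420), compared with 0.465 (0.423 to 0.504) for later-intron peaks. The first 10% of the intron held 85 of the 398 members, 21.4% (17.6 to 25.6%), while allowed positions gave 9.34%. In later introns it held 85 of 843, 10.1% (8.23 to 12.3%), against 8.57% of allowed positions. This feature was picked after its values were seen; first and later introns differed in it with an odds ratio of 2.42 (Fisher's exact test, two-sided, p = 2.10e-07). Among peaks more than 2 kb from the start the order turned, with 7.19% of first-intron peaks (22 of 306) and 9.75% of later-intron peaks (81 of 831) in the first 10% of their introns and no difference past the threshold (exact p = 0.201). A first intron begins next to the start, so this cut itself takes out much or all of the first 10% of many first introns. It left out 92 first-intron peaks but only 12 later-intron peaks, so the turn cannot be read as a result about position within the intron. Among peaks more than 500 nt from the 5′ splice site the shares were 11.8% and 5.59% (exact p = 4.98e-04). In a short intron the first 10% lies wholly within 500 nt of that site, so no peak kept there can fall in it. Later introns with peaks were shorter, with a lower quartile of 3864 nt against 14574 nt. That setting therefore cannot separate position from intron length. In introns of 10 kb or more the direction was that of the full set, with 70 of 331 and 54 of 492 peaks (odds ratio 2.18, exact p = 9.52e-05).

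**Figure D2:**
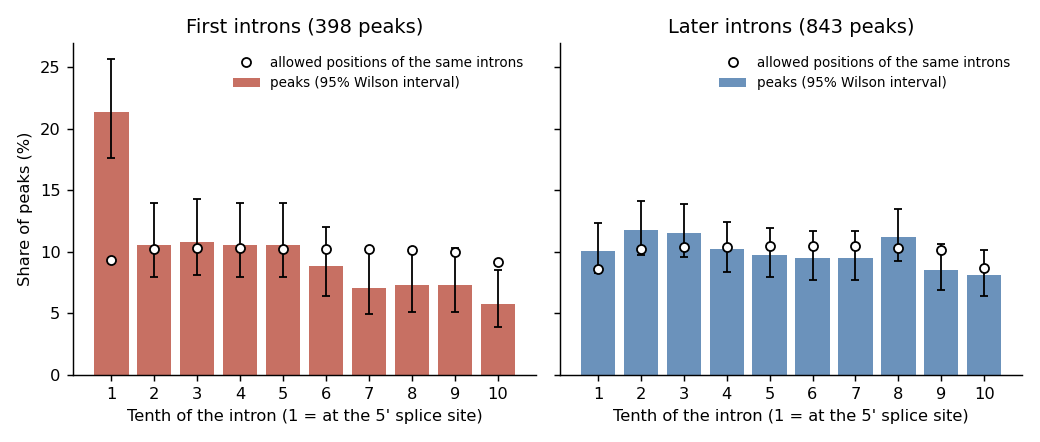
Share of peaks (%, bars, with 95% Wilson intervals) in each of 10 equal slices of the intron, from the 5′ splice site (1) to the 3′ splice site (10), for 398 first-intron and 843 later-intron peaks. Open circles are the share of allowed positions in the same introns; the first slice of first introns holds 21.4% of the peaks and 9.34% of allowed positions, and the last slice 5.78% and 9.15%.

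Close to the 5′ splice site itself, 21 first-intron peaks (5.28%) began no more than 100 nt away, against 1.03% of allowed positions, and 31 (7.79%) began 101 to 500 nt away, against 3.72%. The later-intron values for the nearest 100 nt were 3.80% of peaks (32) and 2.75% of positions. One member, in DKC1, began directly at the splice site, with a distance of 0 nt, followed by ZNF354B at 10 nt and HIC2 at 20 nt. At the other end of the intron only 3 first-intron peaks (0.754%) ended within 100 nt of the 3′ splice site, against 0.896% of allowed positions, where later introns had 35 peaks (4.15%) and 2.71% of positions. More than 2 kb from every annotated exon of the gene lay 228 members, 57.3% of them.

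First-intron peaks were rich in G. Their median base content was 30.1% G (95% interval 29.1 to 31.4%), 21.0% C, 23.4% A and 23.5% T, and the median G of their own introns was 23.1%. Against the 300 nt on either side of the same peak, where the median was 25.6% G, G was higher in the peak in 295 of 398 cases (74.1%, 69.6 to 78.2%), with a median difference of 4.40 percentage points. More G than C was present in 301 peaks (75.6%). Later-intron peaks had a median of 26.7% G beside 23% in their flanks, and 577 of the 841 that had flanks within the intron (68.6%) exceeded them. The difference from the flanks was thus in the same direction in both sets, and the level was higher in first introns in both the peaks and their surroundings.

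**Figure D3:**
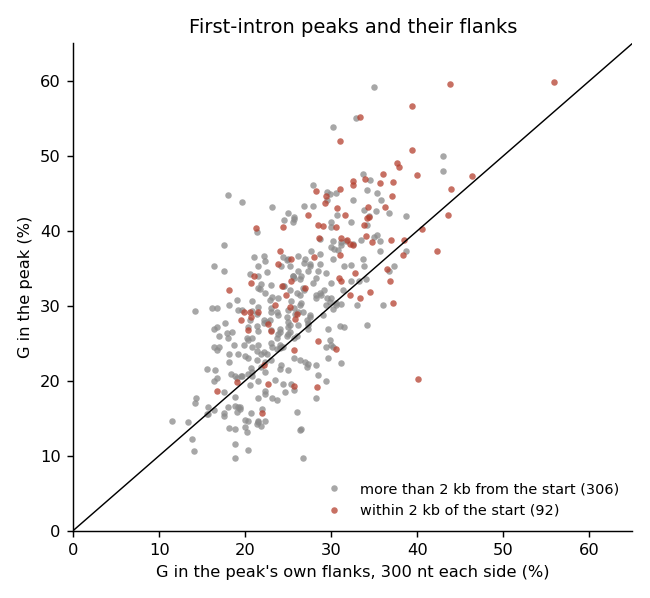
G content of each of the 398 first-intron peaks (vertical axis, %) against that of the 300 nt on either side (horizontal axis, %), with the line of equality; red points are the 92 peaks within 2 kb of the transcription start and grey points the other 306. Points lie above the line in 295 cases, and the red points are shifted to the right and upwards, with medians of 31.0% G in the flanks and 37.7% in the peak.

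The excess of G sat at the 5′ edge. At positions 6 to 15 from the edge, 39.2% of the bases of first-intron peaks were G, with a highest single value of 44.5% at position 8. Upstream, from 100 to 51 nt before the edge, the value was 27.4%, over the first 50 nt of the peak 34.6%, and over the next 50 nt 27.5%. At positions 6 to 15 counted inwards from the 3′ edge it was 27.5%. The shape was shared by later-intron peaks, with 38.1% G at positions 6 to 15, 40.9% at position 8 and 24.1% upstream. The base just before the 5′ edge was T in 35.4% of first-intron peaks and in 30.0% of later-intron peaks.

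**Figure D4:**
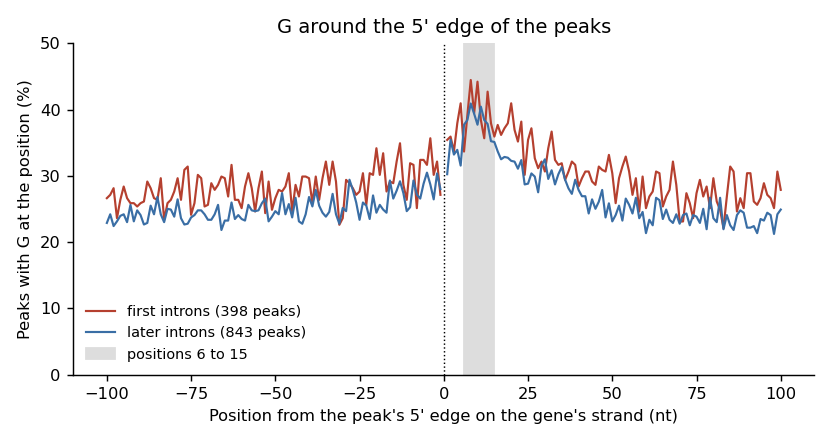
Share of peaks with G (%) at each position from 100 nt before to 100 nt after the peak's 5′ edge on the host gene's strand, for 398 first-intron peaks (red) and 843 later-intron peaks (blue); the grey band marks positions 6 to 15. Both curves climb to their highest value at position 8, 44.5% and 40.9%, and the red curve starts from a higher level upstream.

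The side of the G is tied to the strand. In 268 of the 398 peaks (67.3%) there were more G at positions 6 to 15 than C at the mirrored positions inside the other edge, and in 83 (20.9%) there were fewer. The list gives no strand, and 25 members (6.28%) overlapped a gene annotated on the opposite strand, for which the strand of the RNA cannot be told. They included all 3 peaks of FLRT1, a cell adhesion gene that lies within MACROD1 on the other strand, and all 3 of HOXB3, which overlap the antisense transcript HOXB-AS3. A further gene on the same strand covered 33 members (8.29%), for example HOXB4 over 2 of the HOXB3 peaks. Overlap with an opposite gene did not differ detectably from later introns (7.24%, odds ratio 0.859, adjusted exact p = 0.632).

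A set of 10 features was then compared between first-intron and later-intron peaks with Fisher's exact test (two-sided), with p-values adjusted by the Benjamini-Hochberg method over the 10. The p-values treat peaks of 1 list as independent, and so they measure the spread between peaks and not between libraries. The G-rich and GC-rich classes were larger in first introns. G of 35% or more was found in 130 of 398 first-intron peaks (32.7%) and in 163 of 843 later-intron peaks (19.3%; odds ratio 2.02, adjusted exact p = 2.35e-06). GC of 55% or more was found in 43.97% and 30.2% (odds ratio 1.81, adjusted exact p = 9.75e-06). Windows of the same width tiled over the same introns, off exons and peaks, gave 9.76% and 7.12% for the G class and 22.2% and 20.03% for the GC class, so that peaks exceeded their introns in both sets.

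Patterns built from runs of G followed. A G-quadruplex pattern, 4 runs of at least 3 G separated by 1 to 7 nt, was present in 46 first-intron peaks (11.6%) and in 43 later-intron peaks (5.10%; odds ratio 2.43, adjusted exact p = 2.03e-04), against 1.76% and 1.16% of windows. At least 5 G at positions 6 to 15 were found in 44.2% and 35.7% (adjusted exact p = 0.00812). The pentamer GGAGG, searched on the host strand only, did not differ past the threshold, at 35.9% and 31.6% (odds ratio 1.22, adjusted exact p = 0.152), with 19.8% and 18.2% of windows. In the 143 first-intron peaks that held it, its first copy began at a median of 17 nt from the 5′ edge, and in 81 of them (56.6%) within 20 nt. TTTTT was less frequent in peaks than in windows, with 14.3% of first-intron peaks against 28.0% of windows, and the difference from later introns (19.2%) narrowly missed the threshold (odds ratio 0.703, adjusted exact p = 0.0542).

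The feature with the highest odds ratio was the set of CpG criteria, that is, GC over 50% together with an observed to expected CpG ratio over 0.6. It was met by 49 first-intron peaks (12.3%) and 20 later-intron peaks (2.37%; odds ratio 5.78, adjusted exact p = 1.06e-10), against 6.06% and 3.23% of windows. First-intron peaks were also more often wider than 110 nt, in 20.4% and 13.9% of cases (odds ratio 1.59, adjusted exact p = 0.00812). Most peaks in both sets were close to 100 nt, the length to which reads were extended before peak calling, with a median width of 103 nt in each.

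Among all 6-mers on the host strand, those furthest above the windows of the same introns were G-rich. GGAGGG was present in 83 peaks, 20.9% against 6.13% of windows, GGGTGG in 18.6% against 5.14%, GGGAGG in 22.6% against 9.92%, and GGGGAG in 17.6% against 5.50%. ATTTTT was the furthest below, in 24 peaks, 6.03% against 14.6%. These are descriptions, since the 4096 6-mers overlap one another and were ranked on their values.

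G and GC were highest in the start-proximal peaks. Within 2 kb of the start the median G was 37.7% and the median GC 63.2%, compared with 29.4% and 52.9% between 2 and 10 kb, 28.2% and 49.0% between 10 and 50 kb, and 27.9% and 49.0% beyond 50 kb. The flanks moved alongside, with median G of 31.0%, 25.7%, 24.5% and 23.5% in the same order. The peak exceeded its own flanks in every class, by a median of 7.21, 3.76, 3.06 and 4.88 percentage points, and in 73 of 92, 69 of 98, 100 of 139 and 53 of 69 peaks. A G-quadruplex pattern was present in 23.9% of the start-proximal peaks and in 6.47 to 10.1% of the other classes. The CpG criteria were met by 41.3% of the start-proximal peaks, by 4.08% and 5.04% of the next classes, and by 0 of the 69 peaks beyond 50 kb. The pentamer GGAGG varied less, between 33.7% and 41.3%.

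Start-proximal peaks were then set against windows of the same first introns that began within 2 kb of the transcription start. Start-distal peaks were set against windows of their introns beyond that distance. G of 35% or more was found in 57.6% of the 92 start-proximal peaks (53 peaks, 47.4 to 67.2%) and in 22.2% of their windows, and in 25.2% of the 306 start-distal peaks (77 peaks, 20.6 to 30.3%) and 8.13% of theirs. For the G-quadruplex pattern the values were 23.9% against 5.91%, and 7.84% against 1.06%. For 5 or more G at positions 6 to 15 they were 58.7% against 18.1%, and 39.9% against 9.88%. The CpG criteria behaved otherwise, with 41.3% of start-proximal peaks against 22.5% of windows, but 3.59% of start-distal peaks (2.02 to 6.32%) against 3.76%, a share that lay within the interval of the peaks.

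**Figure D5:**
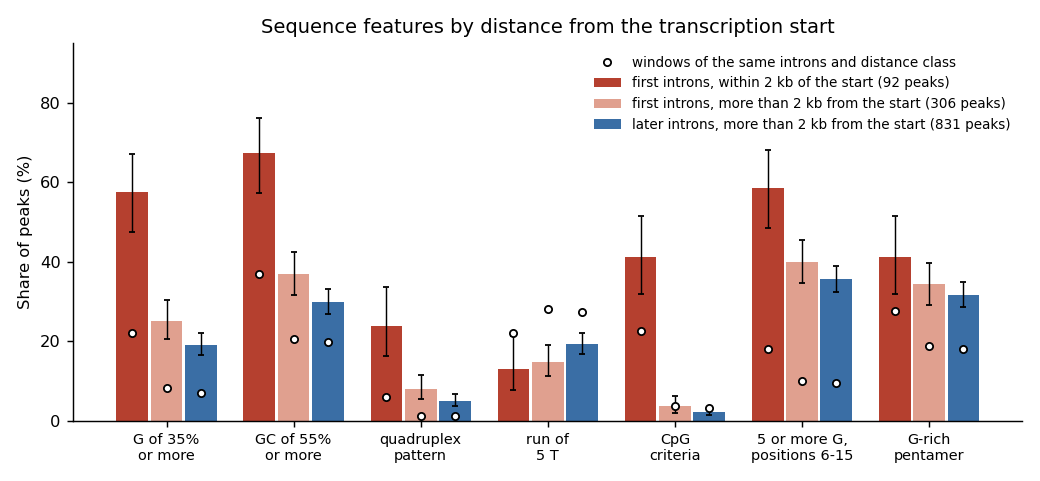
Share of peaks (%, bars, with 95% Wilson intervals) with each of 7 sequence features, for first-intron peaks within 2 kb of the transcription start (92, dark red) and farther away (306, light red) and for later-intron peaks farther away (831, blue); the G-rich pentamer is the GGAGG of the text. Open circles are the shares in windows of the same introns in the same distance class; start-distal first-intron peaks and later-intron peaks have overlapping intervals in each feature.

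Without the start-proximal peaks, on both sides of the comparison, none of the 10 features differed between first and later introns past the threshold. G of 35% or more then stood at 25.2% against 19.1%, a difference of 6.03 percentage points (adjusted exact p = 0.159), GC of 55% or more at a difference of 6.96 points (adjusted exact p = 0.159), the G-quadruplex pattern at 2.79 points (adjusted exact p = 0.214), the CpG criteria at 1.43 points (adjusted exact p = 0.337), G at positions 6 to 15 at 4.25 points (adjusted exact p = 0.337) and width at 2.38 points (adjusted exact p = 0.422). All 6 kept the direction of the full set. A p-value above the threshold in this smaller set does not show that start-distal first-intron peaks and later-intron peaks were alike.

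First introns usually held a single peak. Of the 365 host genes 339 had 1, 20 had 2, 5 had 3 and 1 had 4. The 33 pairs of neighbouring peaks in 1 intron were a median of 19987 nt apart (236 to 231396 nt), and only 3 pairs were closer than 1000 nt.

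The gene with 4 was MECOM, a zinc-finger transcription factor gene known for rearrangements in myeloid leukemia, whose first intron spans 281811 nt. Its peaks lay 5294, 25390, 150358 and 259057 nt from the start with 33.9%, 34.5%, 24.1% and 37.3% G. The G content was above that of the flanks in all 4, which had 26.5%, 22.5%, 16.7% and 27.7%.

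The 5 genes with 3 peaks differed in layout. In HOXB3 the peaks lay at 11097, 13567 and 13916 nt in an intron of 16110 nt, the last pair only 236 nt apart. PXDN, which encodes the basement membrane enzyme peroxidasin, had 1 peak at 927 nt and a pair at 26031 and 26792 nt. DIP2C had peaks at 258, 53964 and 152463 nt, with G content of 42.1%, 31.4% and 20.8%. In FLRT1 they lay at 3031, 28707 and 40797 nt with 30.1%, 29.6% and 30.5% G, beside flanks of 36.0%, 30.2% and 29.8%. The FLRT1 peaks overlap MACROD1 on the other strand, so their gene, strand and G content rest on the assignment rule. In EFNA5 the peaks lay at 102563, 111728 and 165088 nt. The middle EFNA5 peak, with a fourth-column value of 2, had 38.2% G between flanks of 17.5%, while the first had 13.4% between flanks of 26.3%, so that peaks of 1 intron could differ from their surroundings in opposite directions.

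Host genes were sorted by symbol into 12 function lists, and each list was read beside all genes (2.00% hosts) and beside the number expected if each member had the host share of its class of first-intron length. At least 1 list held 137 of the 364 hosts, or 37.6%. The lists follow patterns in gene symbols and are incomplete. The hosts DKC1, HIC2, NEURL1 and DPF2, described above, are on none of them, so the counts do not cover every host of a function. The lists were chosen with results of these peaks known, and their counts carry no test. The expected numbers take in first-intron length only and not whether a gene was transcribed in these cells. The order of the lists is therefore no measure of a preference for gene functions.

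By ratio to the length-based number, chromatin regulators and a list of other transcription factors stood highest. The latter was kept apart from the zinc-finger list by symbol and not by protein domain. Some of its members, such as TSHZ1, are themselves zinc-finger proteins. The list of other transcription factors had 16 hosts of 399 genes, 4.01% (2.48 to 6.41%), against 8.70 expected. They included HOXB3, RFX1 and TSHZ1, and RORA with peaks at 88293 and 319792 nt. Chromatin regulators had 11 of 248, 4.44% (2.49 to 7.77%), against 6.11 expected, among them PHF2, a histone demethylase, the Polycomb cofactor JARID2 and the acetyltransferase KAT2B. Zinc-finger transcription factors, with 684 genes, had 12 hosts against 11.4, including ZNF354B with a peak 185 nt from the start and ZNF554 with one at 380 nt.

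Signalling and cytoskeletal genes were near or above that number. GTPases and their regulators had 24 hosts of 434 genes (5.53%) against 16.7 expected, with SIPA1L3 at 196 nt, the small GTPase RHOC at 399 nt and the G protein subunit GNAI2 at 1351 nt from the start. Cytoskeletal and motor genes had 13 of 330 (3.94%) against 10.3, among them the kinesin KIF18A at 192 nt and the pointed-end capping protein TMOD3 at 251 nt. Protein kinases had 14 of 393 (3.56%) against 13.8, with MAP2K4 at 286 nt and the growth factor receptor PDGFRA at 4592 nt.

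The remaining lists were below it. Adhesion, axon guidance and matrix genes, whose first introns are long (median 13829 nt), had 17 hosts of 463 (3.67%) against 20.02 expected, among them FLRT1, EFNA5, SDK2 and PCDH7. The ubiquitin pathway had 11 of 550 (2.00%) against 13.7, including the ligases ITCH at 1050 nt and RNF144A at 1699 nt. Ion channels had 7 of 305 (2.30%) against 9.28, including the calcium channel subunit ORAI2 at 234 nt and the mechanosensitive channel PIEZO1 at 1142 nt. Solute carriers and transport ATPases had 7 of 493 (1.42%) against 9.28, including SLC25A38, a mitochondrial glycine carrier, with a peak 579 nt from the start.

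RNA processing and RNA-binding proteins had 5 hosts of 368 genes, 1.36% (0.582 to 3.14%), against 6.64 expected. The list does not hold DKC1. Its 5 hosts were SF3B1, CNOT2, RBM14, the cleavage stimulation factor subunit CSTF3 and the RNA-editing enzyme ADARB1. ADARB1 lay outside the naming rule and was named after its values were seen. In CNOT2 the peak lay 134 nt from the start with 37.3% G and in RBM14 1250 nt from it with 35.5%, whereas the CSTF3 peak, 3573 nt from the start, had 21.5%. Ribosomal proteins and translation factors, abundant transcripts with short first introns (median 945.5 nt), had 1 host of 268, RPL4, against 2.02 expected. Its peak lay 967 nt from the start in an intron of 1258 nt and had 28.2% G.

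Of the 5 genes with the highest G content, only TUBGCP3 (cytoskeleton and motors) and SEMA5B (adhesion, axon guidance and matrix) were on any of these lists. After MLF1, HIC2 and PALM2AKAP2 came TUBGCP3, a subunit of the gamma-tubulin ring complex (56.7% G, 439 nt from the start), and SEMA5B, a guidance molecule (55.2% G, 1077 nt from the start). The peak in PALM2AKAP2 lay 55015 nt from the start, and the other 4 lay within 2 kb. The lowest G content of any member was 9.71%.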

How the data were processed

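Per the labels and the methods, the authors trimmed reads with cutadapt, handled molecular identifiers with UMI-tools, aligned to GRCh38 with Bowtie (bowtie2 in the methods), removed duplicates, kept uniquely placed reads and dropped those in transposable elements. MACS2 called peaks against the merged control inputs, with reads extended to a fixed length, per tagged library and on the merged libraries, calls past a limit on the p-value were kept, and their union was made. A later selection on read support is described in the methods; the deposited list was taken to precede it, although it does not say so. Tool versions are not given in the sources used here. Besides chromosome, start and end, the deposited list holds 1 whole number a peak, called the fourth column above and handled as a score that the authors left unexplained. The 9 libraries (5 tagged, 4 controls) were grouped by their labels, but the list has no value for any of them, so intervals and p-values cover the number of peaks only.

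Starts are printed counting from 1. Genes came from GENCODE release 44 on GRCh38, and the authors' annotation was an earlier release on that build. Counts were compared with Fisher's exact test in scipy 1.17.1 (threshold 0.05, Benjamini-Hochberg over 10 tests), shares carry 95% Wilson intervals and medians exact order-statistic intervals. Scripts ran in Python 3.11.15 with pysam 0.24.0, pandas 2.3.3 and numpy 2.4.6, and were checked on simulated data. Alternatives changed the assignment rule, the peaks kept, the thresholds, the motifs and the flanks (300 or 1000 nt). Windows and allowed positions were not masked for repeats. Named genes were the hosts of peaks with the highest score, of 3 or more peaks, of the 5 nearest and the 5 farthest peaks, of the 5 highest G contents and of the 3 shortest first introns, SF3B1, and up to 4 members of each function list by number of peaks and then nearness to the start. Some genes that this rule names are not reported here. Members and lists were chosen with earlier results of these data known.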

Additional observations from a re-analysis of the deposited data

How the results depend on the processing

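Of 92 recomputed tests 76 kept their direction and their side of the threshold, and of 57 recomputed values 49 were counted as unmoved. For shares and medians that meant lying within the 95% interval of the main value. The number of peaks has no interval and was judged by a fixed limit on its ratio to the main value. With peaks assigned by midpoint, the difference (first minus later introns) passed the threshold for GGAGG (6.52 points), TTTTT (-5.82) and a fourth-column value of 2 or more (1.89). With 1 peak per gene the difference in width lost it (5.09). More than 2 kb from the start, G of 35% or more (6.03), GC (6.96), the G-quadruplex pattern (2.79), CpG criteria (1.43), width (2.38) and G at positions 6 to 15 (4.25) lost it. The first 10% of the intron turned there (-2.56, an alternative added after the data were seen), but the cut itself takes out much of that part of many first introns. With this cut the share in first introns was 26.9%, the median distance 18059.5 nt, the median length 44945 nt, the relative position 0.452 and the median G 28.6%. In introns of 10 kb or more, width (5.83) and G at positions 6 to 15 (6.72) lost the threshold, and the share, distance and length were 40.2%, 15125 nt and 45184 nt. Against later-intron peaks over 2 kb from exons, TTTTT (-6.93) and the fourth column (2.05) passed it, and overlap with an opposite gene turned (0.739, adjusted exact p = 0.662). GGAGGG in place of GGAGG passed it (5.20). Apart from settings that leave out peaks by position or number, the cause was not tested. No paired analysis was possible because the list has no value for any library, and for the same reason no replicate could be left out. The list gives no reads per peak and the methods' selection on read support was not applied, so strength of binding could not be compared.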
